A study of Homo sapiens with 6 samples.

Results

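Cells in which a transcript of the shRNA vector was counted were set against cells of the same library in which none was. The comparison was made in 2 Drop-seq libraries of PC9, an established cell line from a human lung adenocarcinoma whose growth depends on a mutated EGFR. In Drop-seq, single cells are caught in droplets and every captured molecule carries a unique molecular identifier (UMI). Barcodes with 1000 or more UMIs, no more than 20% of them mitochondrial, were taken as cells. A cell was called vector-detected with 1 or more UMIs in the table's row for pLVTHM, the lentiviral vector, and undetected with 0. Of the 456 cells in these libraries, 110 were vector-detected and 346 undetected, and all 6 libraries of the study held 1769 cells. The classes were thus chosen by the counts of the vector row, whose own values are a description.

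In the KDM5A shRNA library, cells were transduced with the pLVTHM vector carrying GFP and an shRNA against KDM5A, and the EGFR kinase inhibitor erlotinib was given at 2 µM from day 4 after transduction for 1 day. In the KDM5A and KDM5B shRNA library, cells received 2 such viruses together, and the same erlotinib treatment began on day 5. Both viruses of that library use pLVTHM, so its vector row does not tell which shRNA a cell received. The scrambled shRNA library carried the same vector with a control shRNA and had no erlotinib. The other libraries held CPI-455-treated cells and cells with KDM5A cDNA in another vector, both with erlotinib, and cells with neither virus nor drug. Transduced cells were kept in 10% serum afterwards. The labels name no sorting for GFP and no selection, and each condition had 1 library, so differences between libraries were not tested.

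Lentiviruses copy their RNA into DNA and insert it into a chromosome of the host cell. In pLVTHM the H1 promoter, which belongs to the gene for the RNA of RNase P, drives the short hairpin, and the hairpin is cut into a small RNA that guides the breakdown of matching messenger RNA. KDM5A and KDM5B encode enzymes that remove methyl groups from lysine 4 of histone H3, and KDM5A has been linked to the survival of PC9 cells under EGFR inhibitors. Which part of the vector the row counts is not given in the sources used here.

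Vector transcripts were sparse. They were counted in 70 of 332 cells (21.1%, exact binomial 95% interval 16.8 to 25.9) of the KDM5A shRNA library, in 40 of 124 cells (32.3%, 24.1 to 41.2) of the KDM5A and KDM5B shRNA library and in 10 of 222 cells (4.50%, 2.18 to 8.13) of the scrambled library. Summed over cells, the row held 131, 65 and 18 UMIs in these 3 libraries. CPM here are UMIs of a gene scaled to the same total in every group of cells. The row stood at 83.6 CPM (exact Poisson 95% interval 69.9 to 99.2), 92.2 CPM (71.2 to 118) and 14.2 CPM (8.43 to 22.5). All intervals here cover counting error only. The row is not listed for CPI-455, KDM5A cDNA and untreated cells, with 0 of 164, 105 and 822 cells, for which the exact intervals reach 2.22%, 3.45% and 0.448%. Barcodes below 1000 UMIs, too shallow to count as cells, held the vector row at 80.3, 72.2 and 31.1 CPM in the pLVTHM libraries, from 6, 6 and 4 UMIs, and the part of free RNA in the detected cells was not tested.

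Most detected cells lay at the edge of the rule. In the KDM5A shRNA library 44 detected cells had 1 vector UMI, 14 had 2 and 12 had 3 or more, with a highest count of 12. In the KDM5A and KDM5B shRNA library these numbers were 25, 9 and 6, with a highest count of 5. The shallowest detected cells held 1083 and 2083 UMIs in the 2 libraries, and the shallowest undetected cells 1001 and 1032.

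Detected cells were deeper than undetected cells. Their median was 5993.5 UMIs in detected against 3335.5 in undetected cells of the KDM5A shRNA library, 5379 against 3958.5 in the KDM5A and KDM5B shRNA library, and 7222.5 against 4012.5 in the scrambled library. With KDM5A shRNA the detected share was 8.45% at 1000 to 2000 UMIs, 13.4% at 2000 to 4000, 28.4% at 4000 to 8000 and 42.6% above that. With KDM5A and KDM5B shRNA it was 0 of 18 cells in the lowest of these ranges, where the exact interval reaches 18.5%, then 34.2%, 33.3% and 48.3%. After thinning every cell to 1000 UMIs, 23 cells (6.93%), 8 cells (6.45%) and 4 cells (1.80%) of the 3 libraries still showed a vector UMI. The undetected class cannot be read as untransduced. At the median undetected depth a count of 0 allowed up to 899 CPM of vector with KDM5A shRNA and 758 CPM with KDM5A and KDM5B shRNA, above the 271 and 229 CPM that the detected class held.

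**Figure D1:**
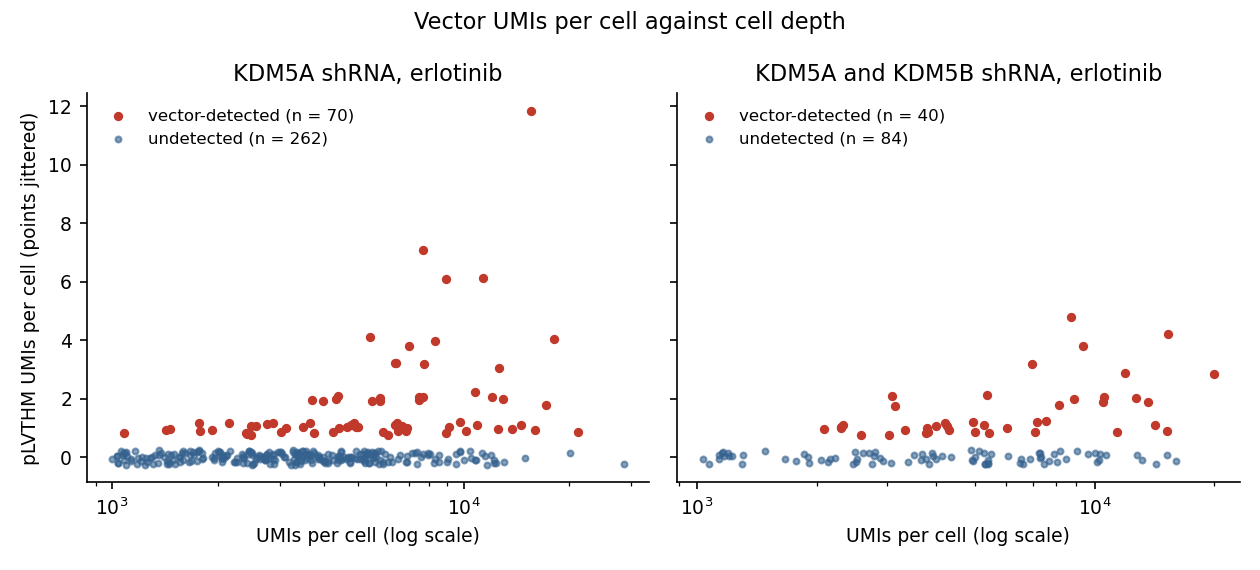
Vector UMIs per cell (vertical axis, points jittered around whole numbers) against all UMIs per cell (horizontal axis, log scale) in the KDM5A shRNA library (left) and the KDM5A and KDM5B shRNA library (right); red points are vector-detected and blue points undetected cells. Detected cells lie further to the right, with medians of 5993.5 and 5379 UMIs against 3335.5 and 3958.5, and most sit at 1 UMI.

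Genes per cell at equal depth were close between the classes. Thinned to 1000 UMIs, detected cells held a median of 696 genes and undetected cells 697 with KDM5A shRNA, and 701 and 709 with KDM5A and KDM5B shRNA. The mitochondrial share had medians of 6.94% in detected and 6.84% in undetected cells with KDM5A shRNA, and 7.91% and 7.77% with KDM5A and KDM5B shRNA, but 6.70% and 4.58% in the scrambled library. Barcodes ending in N made up 25.7% of detected and 32.1% of undetected cells with KDM5A shRNA, and 17.5% and 28.6% with KDM5A and KDM5B shRNA. No kept barcode was shared by any of the 15 pairs of libraries. Both classes carried the defining genes of the line. The 10 keratins summed to 11514 CPM in detected and 12961 CPM in undetected cells with KDM5A shRNA, and to 13349 and 12201 CPM with KDM5A and KDM5B shRNA. EGFR stood at 307 CPM in detected and 348 CPM in undetected cells with KDM5A shRNA, and at 268 and 273 CPM with KDM5A and KDM5B shRNA. The 10 blood cell markers had 0 UMIs in detected cells of both libraries, and 0 and 2 UMIs in undetected cells. The 7 fibroblast markers had at most 4 UMIs and the 6 endothelial markers at most 12 in any class of the 2 libraries.

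KDM5A, the target shared by both shRNA libraries, was lower in detected cells of the KDM5A shRNA library. There it had 10 UMIs in detected cells, or 20.7 CPM (9.93 to 38.1), and 79 UMIs in undetected cells, or 72.9 CPM (57.7 to 90.9). The log2 ratio of detected over undetected cells was -1.82 (-2.93 to -0.86), and the counting intervals of the classes did not overlap. At least 1 KDM5A UMI was seen in 7 of 70 detected cells (10%, 4.12 to 19.5) and in 57 of 262 undetected cells (21.8%, 16.9 to 27.2). The detected cells were deeper, but the intervals of these shares overlap. In the ranges of 2000 to 4000, 4000 to 8000 and over 8000 UMIs per cell, detected cells held 22.3, 23.0 and 19.6 CPM from 1, 4 and 5 KDM5A UMIs, and undetected cells 77.5, 68.1 and 83.7 CPM from 22, 27 and 26. In the lowest range, with 0 KDM5A UMIs in 6 detected cells and 4 UMIs in undetected cells, no difference was detectable at this depth. The level was 23.2 CPM in cells with 1 vector UMI, 18.3 CPM with 2 and 17.3 CPM with 3 or more, from 6, 2 and 2 KDM5A UMIs. After thinning only 1 KDM5A UMI was left in detected and 16 in undetected cells, with a log2 ratio of -2.10 whose interval, -7.49 to 0.59, includes 0. Among cells of 2000 to 6000 UMIs the ratio was -1.19 (-3.12 to 0.27).

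KDM5A was not lower in detected cells of the KDM5A and KDM5B shRNA library. KDM5A had 14 UMIs in detected cells and 14 in undetected cells there, or 49.4 CPM (27.0 to 82.9) and 33.2 CPM (18.2 to 55.7), with a log2 ratio of 0.57 (-0.61 to 1.75). On all UMIs that interval leaves out a fall of the size measured in the KDM5A shRNA library. Among cells of 2000 to 6000 UMIs the interval was -2.13 to 2.06 and includes such a fall. After thinning it was -0.55 to 4.49 in 1 draw and -3.40 to 2.87 in the other. Detected cells there may hold either virus, and the difference between the libraries was not tested. In the scrambled library the 10 detected cells held 11 KDM5A UMIs, or 128 CPM (63.7 to 228), and undetected cells 95 UMIs, or 80.5 CPM (65.2 to 98.4), with a log2 ratio of 0.66 (-0.39 to 1.57). Over both shRNA libraries edgeR gave KDM5A a log2 fold of -0.88 with adjusted p = 0.445, so it was not called. KDM5A stood at 56.8, 39.7 and 83.7 CPM over all cells of the KDM5A shRNA, the KDM5A and KDM5B shRNA and the scrambled library.

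KDM5B, the target of the added virus in the library with both shRNAs, was not lower in its detected cells. It had 39 UMIs in detected cells, or 138 CPM (97.9 to 188), and 55 UMIs in undetected cells, or 131 CPM (98.3 to 169.9), with a log2 ratio of 0.08 (-0.55 to 0.69). With KDM5A shRNA alone it stood at 155 CPM (122 to 195) in detected and 149.5 CPM (127 to 174) in undetected cells, a log2 ratio of 0.06 (-0.36 to 0.46). In the scrambled library the ratio was 0.37 (-1.31 to 1.68), from 5 UMIs in detected and 53 in undetected cells. In edgeR KDM5B had adjusted p = 0.989. A fall of KDM5B beyond 0.55 on the log2 scale lies outside the interval of the library with both shRNAs, but detected cells there may hold either virus.

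**Figure D2:**
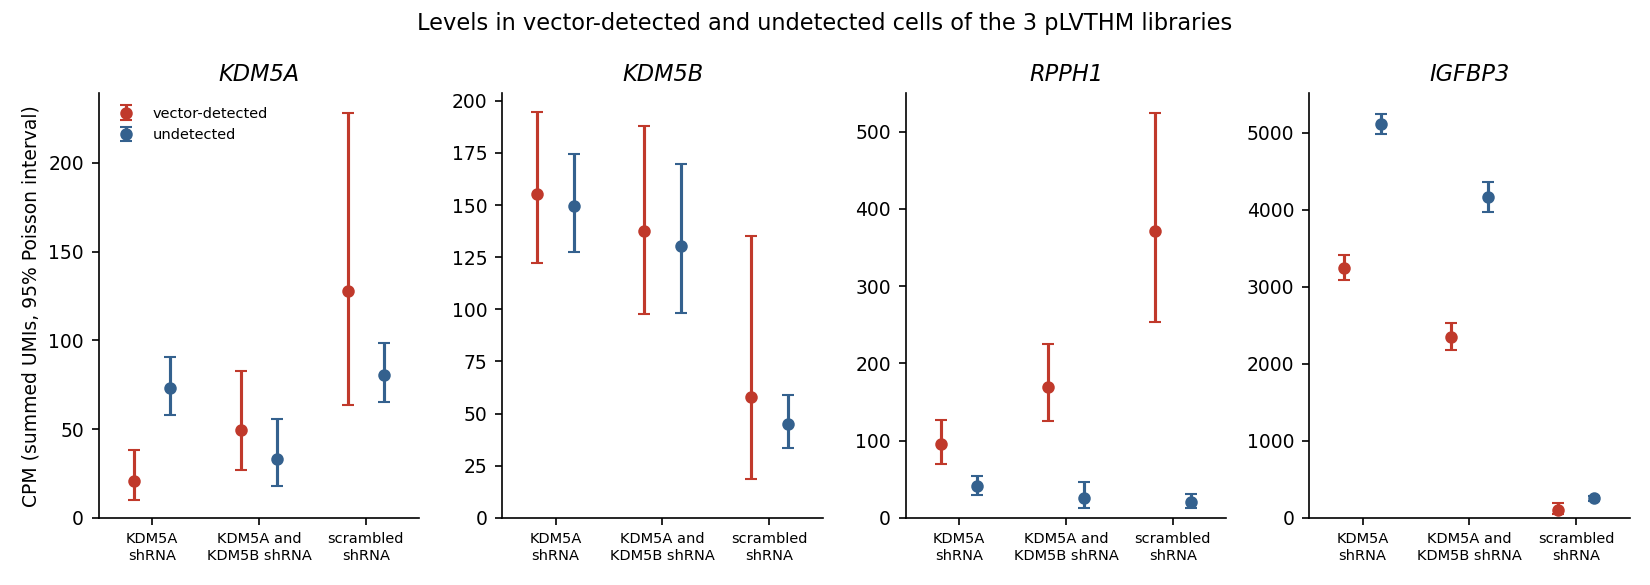
Levels in CPM (vertical axes, each starting at 0) of KDM5A, KDM5B, RPPH1 and IGFBP3 summed over vector-detected (red) and undetected (blue) cells of the KDM5A shRNA, KDM5A and KDM5B shRNA and scrambled libraries; bars are exact Poisson 95% intervals. KDM5A is lower in detected cells with KDM5A shRNA, at 20.7 against 72.9 CPM, while RPPH1 is higher and IGFBP3 lower in detected cells of all 3 libraries.

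RPPH1, the RNA component of RNase P, rose in vector-detected cells. It stood at 95.3 CPM (69.8 to 127) in detected and 40.6 CPM (29.5 to 54.5) in undetected cells with KDM5A shRNA, a log2 ratio of 1.23 (0.60 to 1.86). In the library with both shRNAs detected cells held 169 CPM (125 to 225) and undetected cells 26.1 CPM (13.03 to 46.7), a log2 ratio of 2.70 (1.73 to 3.79). The detected cells lay above the undetected cells in both libraries. In edgeR the log2 fold was 1.74 (SE 0.27, adjusted p = 2.72e-07). The scrambled library, which that fit did not use, showed the same direction, with 371 CPM (254 to 524) in detected and 20.3 CPM (13.03 to 30.3) in undetected cells, a log2 ratio of 4.19 (3.38 to 5.02). At least 1 RPPH1 UMI was found in 29 of 70 detected and 35 of 262 undetected cells with KDM5A shRNA, in 18 of 40 and 10 of 84 with KDM5A and KDM5B shRNA, and in 8 of 10 and 14 of 212 in the scrambled library. In the library with both shRNAs RPPH1 also stood higher where more vector was counted, at 88.7 CPM with 1 vector UMI, 237 CPM with 2 and 249 CPM with 3 or more. With KDM5A shRNA the values were 81.3, 55.0 and 164 CPM in that order.

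RPPH1 was close to absent from the libraries without this vector. Over all cells it stood at 57.5 CPM (46.2 to 70.6) with KDM5A shRNA, 83.7 CPM (63.7 to 108) with KDM5A and KDM5B shRNA and 44.2 CPM (33.4 to 57.4) in the scrambled library. CPI-455 cells held 1 UMI, or 1.18 CPM (0.03 to 6.59), untreated cells 13 UMIs, or 3.51 CPM (1.87 to 5.99), and for KDM5A cDNA cells the gene is not listed. Since pLVTHM contains the H1 promoter of this gene, reads from the inserted vector and from the chromosomal gene cannot be told apart in counts per gene symbol. The edgeR call was lost with adjusted p = 0.504 among cells of 2000 to 6000 UMIs, 0.250 in a second draw of the thinning, 0.979 when the vector had to be seen among thinned UMIs and 1.00 without library as a term. In DESeq2 adjusted p was also 1.00, and the log2 folds of these 5 fits lay between 1.28 and 1.91.

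**Figure D3:**
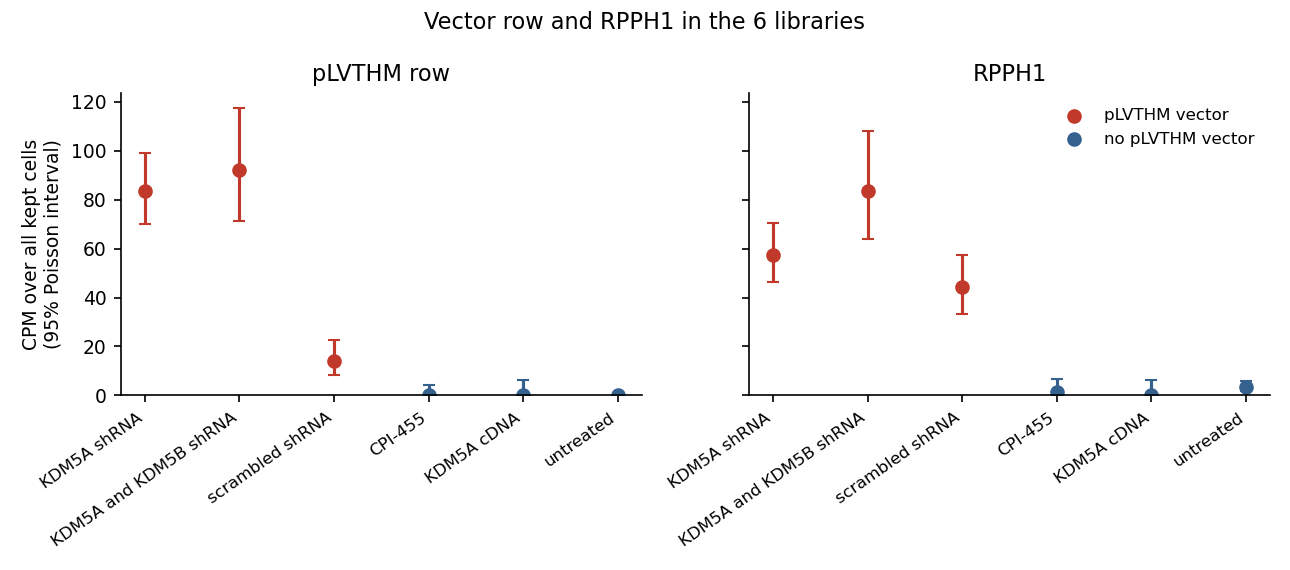
Levels in CPM over all kept cells of the vector row (left) and RPPH1 (right) in the 6 libraries, with exact Poisson 95% intervals; red marks libraries made with pLVTHM and blue those without it. Both are high only where pLVTHM was used, RPPH1 at 44.2 to 83.7 CPM against 0 to 3.51 CPM.

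Across all genes, few differed between the classes in both libraries. On UMIs summed per library and class, with library as a term, edgeR called 15 of 6348 genes higher (0.236%) and 23 lower (0.362%) in detected cells at an adjusted p under 0.05, and 223 and 242 genes had an unadjusted p below that threshold. DESeq2 called 0 genes higher and 1 lower, with 9 and 14 at the unadjusted threshold. The edgeR fit has 1 residual degree of freedom per gene, and the libraries are not replicates of a condition. Its common coefficient of biological variation, 0.0664, is small, and the sums do not measure the spread between cells. P-values are thus too small for genes that a few cells dominate and may be too small for the others. Of the 38 called genes, 36 had the same sign in both libraries on all UMIs, 29 after thinning and 27 among cells of 2000 to 6000 UMIs. The genes were called from these same libraries, and the other settings reuse their cells, so this agreement follows in part from the choice and is not replication. Of 4029 genes with at least 30 UMIs in each library, 960 (23.8%) kept 1 sign in both libraries, with and without thinning. By a rule of size, among genes with at least 100 UMIs, 62 of 2841 (2.18%) were over 1.5-fold higher and 74 (2.6%) lower with KDM5A shRNA, and 36 of 1255 (2.87%) higher and 39 (3.11%) lower with KDM5A and KDM5B shRNA. In both libraries at once it was met by 2 of 1252 genes for higher levels (0.16%), FTH1P16 and GLIPR1, and by 6 for lower levels (0.479%), BCAT1, IGFBP3, ITPRIPL2, KLF5, KRT13 and S100A4.

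**Figure D4:**
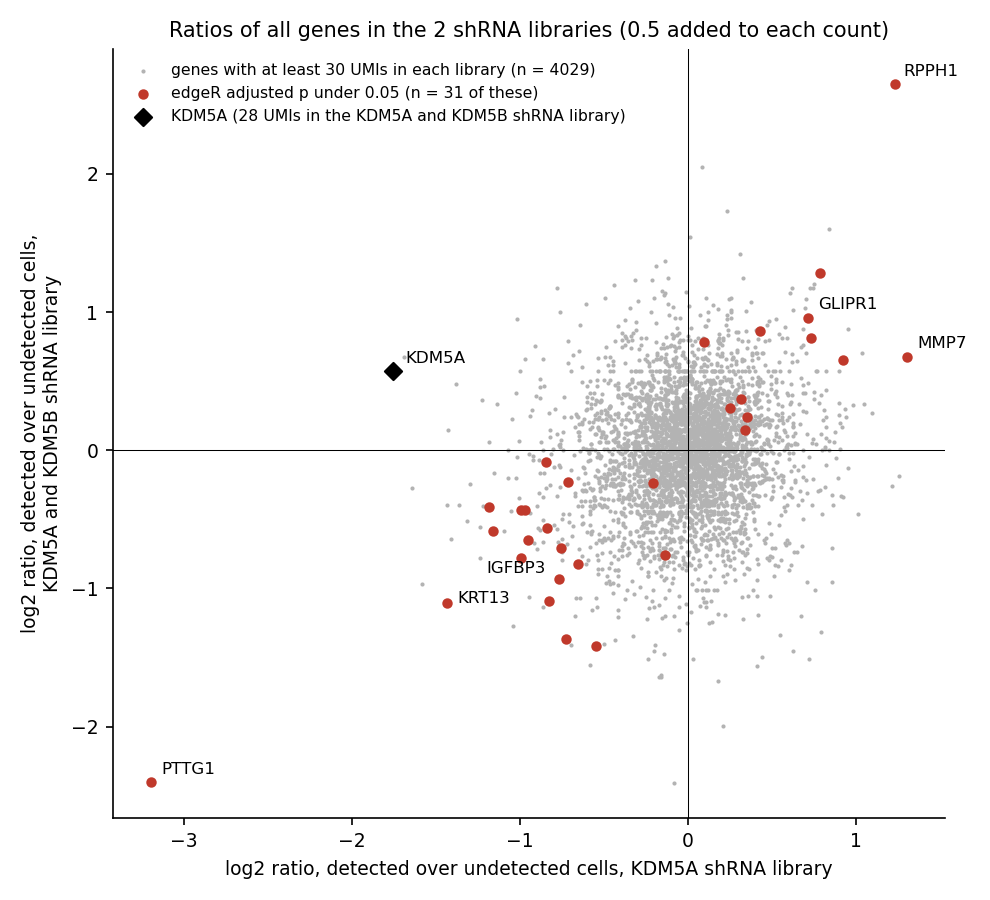
The log2 ratio of detected over undetected cells in the KDM5A shRNA library (horizontal axis) against that in the KDM5A and KDM5B shRNA library (vertical axis), 0.5 added to each count, for 4029 genes with at least 30 UMIs in each (grey); red points are genes called by edgeR and the black diamond is KDM5A, with 28 UMIs in the library with both shRNAs. RPPH1 lies at the upper right and PTTG1 at the lower left, while KDM5A lies left of 0 and above it.

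IGFBP3, a secreted protein that binds insulin-like growth factors, fell in vector-detected cells. It had 3244 CPM (3085 to 3408) in detected and 5111 CPM (4977 to 5248) in undetected cells with KDM5A shRNA, a log2 ratio of -0.66 (-0.74 to -0.57). With KDM5A and KDM5B shRNA it had 2347 CPM (2172 to 2532) and 4160 CPM (3968 to 4360), a log2 ratio of -0.83 (-0.96 to -0.70). In edgeR the log2 fold was -0.72 (SE 0.06, adjusted p = 1.50e-29), and it was the single gene that DESeq2 called, with -0.72 and adjusted p = 0.00307. The difference was present in each depth range that held detected cells. In the 4 depth ranges of the KDM5A shRNA library detected cells held 2861, 2941, 2717 and 3670 CPM, and undetected cells 5367, 4546, 4818 and 5925 CPM. In the upper 3 ranges with KDM5A and KDM5B shRNA these were 2551, 2627 and 2178 CPM in detected and 4964, 3853 and 3946 CPM in undetected cells. Per cell thinned to 1000 UMIs, detected cells had a median of 3 IGFBP3 UMIs (quartiles 1 and 4.75) with KDM5A shRNA and undetected cells a median of 4 (2 and 7). With KDM5A and KDM5B shRNA the medians were 2 (0 and 4) and 4 (2 and 6), so the cells of the classes overlap widely while their sums differ.

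IGFBP3 was lower at every count of vector UMIs. With KDM5A shRNA it stood at 3586 CPM (3358 to 3824) with 1 vector UMI, 3017 CPM (2700 to 3362) with 2 and 2693 CPM (2402 to 3009) with 3 or more, all below the undetected cells. With KDM5A and KDM5B shRNA the values were 2631, 1778 and 2411 CPM. The scrambled library, without erlotinib, held far less of it, but the direction was the same, with 104 CPM (47.7 to 198) in detected and 252 CPM (224 to 282) in undetected cells from 9 and 297 UMIs, a log2 ratio of -1.27 (-2.41 to -0.33). The edgeR call was lost with adjusted p = 1.00 when library was not a term, with 0.469 when the vector had to be seen among 1000 thinned UMIs, and with 0.343 when the fit held the scrambled and KDM5A shRNA libraries only. The log2 folds of IGFBP3 in these fits were -0.72, -0.70 and -0.78. With the vector seen among thinned UMIs, its ratio in the library with both shRNAs was -0.25 (-0.50 to -0.01), from 8 detected cells.

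KRT13, S100A4 and KLF5 were among the other genes that fell. KRT13, a keratin of stratified mucosa, had 78.7 CPM in detected and 215 CPM in undetected cells with KDM5A shRNA, and 219 and 472 CPM with KDM5A and KDM5B shRNA. Its log2 fold in edgeR was -1.25 (SE 0.18, adjusted p = 1.30e-08). S100A4, a calcium-binding protein linked to cell movement, had 236 CPM in detected and 530 CPM in undetected cells with KDM5A shRNA, and 219 and 330 CPM with KDM5A and KDM5B shRNA (edgeR log2 fold -0.94, SE 0.15, adjusted p = 9.32e-07). After thinning, its log2 ratio in the library with both shRNAs was 0.52 (-0.62 to 1.62), from 13 UMIs in detected and 19 in undetected cells, and among cells of 2000 to 6000 UMIs it was 0.026 (-0.77 to 0.79). Over both libraries the edgeR log2 folds of S100A4 in these settings were -0.71 and -0.61, with adjusted p = 0.629 and 0.715, and that of KRT13 was -0.60 among cells of 2000 to 6000 UMIs, with adjusted p = 0.811. KLF5, a transcription factor of epithelial cells, had 122 CPM in detected and 210 CPM in undetected cells with KDM5A shRNA, and 127 and 244 CPM with KDM5A and KDM5B shRNA (edgeR adjusted p = 0.00760). It kept its direction in both libraries after thinning, at -0.36 and -0.93. So did ENY2, a subunit of chromatin and mRNA export complexes, at -1.10 and -1.02, and EMP1, an epithelial membrane protein, at -0.76 and -1.93. After thinning edgeR called neither KLF5 nor ENY2, with adjusted p = 0.916 and 0.542, and EMP1 did not pass the filter to be tested. Thinning draws from the same UMIs, and part of the named genes were picked for keeping their sign under it. A kept direction is therefore not a separate check.

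Further genes that fell were AHNAK, a very large scaffold protein, with an edgeR log2 fold of -0.73, the membrane mucin MUC4 at -0.76, the serum amyloid SAA1 at -0.70, the metalloprotease inhibitor TIMP3 at -0.94 and IGFBP5, a relative of IGFBP3, at -1.48. Smaller or sparser members of the group were BCAT1, which starts the breakdown of branched-chain amino acids, at -0.73, the cytoskeletal adaptor ADD3 at -0.94, LIMCH1, which binds myosin, at -0.50, the iron reductase CYBRD1 at -0.86, ITPRIPL2 at -0.81, CREBRF at -1.77, the splicing factor HNRNPA2B1 at -0.38, the chaperone HSP90AA1 at -0.21 and the nuclear RNA NEAT1 at -0.47. Most of the NEAT1 difference lay in the KDM5A shRNA library, with 371 CPM in detected and 669 CPM in undetected cells, against 773 and 819 CPM with KDM5A and KDM5B shRNA. Among cells of 2000 to 6000 UMIs the edgeR log2 fold of IGFBP5 was -0.014 (adjusted p = 0.999), that of TIMP3 -0.26, that of AHNAK -0.39 and that of HNRNPA2B1 -0.091 (adjusted p = 0.998 for each of these 3). Without barcodes ending in N the fold of IGFBP5 was -0.52 (adjusted p = 0.923). In the range of 2000 to 6000 UMIs 31 of the 38 called genes were tested and 1, IGFBP3, was called. IGFBP3 and IGFBP5 were the 2 called genes of 10 tested on the list from the literature on drug tolerance, on which 3 of 10 members lay above 0 with KDM5A shRNA (median -0.23) and 2 of 10 with KDM5A and KDM5B shRNA (median -0.20). Of all genes tested 0.362% were called lower, and 50.9% and 50.3% of genes with at least 10 UMIs lay above 0 in these libraries. For IGFBP5 the 3 highest cells held 50.0% of the UMIs of detected and 45.1% of those of undetected cells with KDM5A shRNA.

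PTTG1, TPX2 and PRR11, genes of dividing cells, also fell, with sparse counts in few cells. PTTG1, or securin, which holds back the separation of sister chromatids, had 4.14 CPM in detected and 47.1 CPM in undetected cells with KDM5A shRNA, and 35.3 and 195 CPM with KDM5A and KDM5B shRNA (edgeR log2 fold -2.68, SE 0.38, adjusted p = 3.32e-09). TPX2, which builds the spindle, had 0 UMIs in detected and 25.8 CPM in undetected cells with KDM5A shRNA. With 3 UMIs taken as the limit of a count of 0, the detected cells may hold up to 6.21 CPM. In the library with both shRNAs TPX2 had 10.6 and 75.9 CPM. PRR11 had 6.21 and 14.8 CPM with KDM5A shRNA and 24.7 and 94.9 CPM with KDM5A and KDM5B shRNA. In edgeR TPX2 was the 1 called gene of 20 tested in the G2/M list of 51, against 0.362% of all genes called lower. By sign, 7 of 29 members with at least 10 UMIs lay above 0 with KDM5A shRNA, with a median log2 ratio of -0.15, and 2 of 34 with KDM5A and KDM5B shRNA, with a median of -1.04. Of all genes with at least 10 UMIs, 50.9% and 50.3% lay above 0 in these libraries, with medians of 0.01 and 0.00. The 3 highest cells held 45.3% of the list's UMIs in detected and 45.4% in undetected cells of the library with both shRNAs. Among cells of 2000 to 6000 UMIs the list's medians turned to 0.29 and 0.51, and after thinning they were 0.14 and -0.51.

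FTH1, FTH1P16 and TXNRD1 were among the genes that rose. FTH1, the heavy chain of the iron store ferritin, had 16523 CPM in detected and 13902 CPM in undetected cells with KDM5A shRNA, and 16189 and 13119 CPM with KDM5A and KDM5B shRNA. Its log2 fold in edgeR was 0.29 (SE 0.04, adjusted p = 6.58e-10), but in the scrambled library it was lower in detected cells, at 4639 against 5839 CPM. FTH1P16, a ferritin pseudogene whose reads may belong to FTH1, had 122 and 73.8 CPM with KDM5A shRNA and 251 and 142 CPM with KDM5A and KDM5B shRNA, in detected and undetected cells. TXNRD1, which reduces thioredoxin, had 1727 and 1353 CPM with KDM5A shRNA and 1486 and 1255 CPM with KDM5A and KDM5B shRNA (edgeR log2 fold 0.31, SE 0.08, adjusted p = 0.0286). The light chain FTL was not called, with a log2 fold of 0.12 and adjusted p = 0.428 in edgeR. Of 11 tested NRF2 targets and ferritins, genes of the response to oxidants, 2 rose in edgeR (FTH1 and TXNRD1) and 0 fell, against 0.236% and 0.362% of all genes tested. Among cells of 2000 to 6000 UMIs the log2 fold of FTH1 was 0.17 (edgeR adjusted p = 0.998). Signs were counted among members with at least 10 UMIs of the NRF2 and ferritin list of 14, so the 11 tested need not be their base. By sign, 10 members lay above 0 with KDM5A shRNA (median 0.20) and 9 with KDM5A and KDM5B shRNA (median 0.16). Of all genes with at least 10 UMIs, 50.9% and 50.3% lay above 0. The list's medians stayed above 0 after thinning, at 0.16 and 0.17, and among cells of 2000 to 6000 UMIs, at 0.23 and 0.13. In the scrambled library 5 of 12 members lay above 0, with a median of -0.15.

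GLIPR1, a secreted or membrane protein of the CAP family, rose with 437 CPM in detected and 267 CPM in undetected cells with KDM5A shRNA, and 328 and 168 CPM with KDM5A and KDM5B shRNA. Its edgeR log2 fold was 0.80 (SE 0.15, adjusted p = 0.000152), and its log2 ratios after thinning were 1.19 and 0.77. In edgeR it was not called in that draw (log2 fold 1.04, adjusted p = 0.412) or in a second (0.49, adjusted p = 0.947). Among cells of 2000 to 6000 UMIs the log2 fold of GLIPR1 was 0.64 (edgeR adjusted p = 0.811). MMP7, a matrix protease, had 162 CPM in detected and 65.5 CPM in undetected cells with KDM5A shRNA, and 148 and 92.6 CPM with KDM5A and KDM5B shRNA (edgeR adjusted p = 0.000784). In its detected cells 3 cells held 51.3% and 66.7% of its UMIs in the 2 libraries.

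The chemokines IL8 and CXCL1, which draw neutrophils, rose in edgeR (log2 folds 1.16 and 1.29, adjusted p = 0.00263 and 0.0115), but in the library with both shRNAs their levels were not higher in detected cells. IL8 had 172 CPM in detected and 60.9 CPM in undetected cells with KDM5A shRNA, but 35.3 and 42.7 CPM with KDM5A and KDM5B shRNA. CXCL1 had 126 and 41.5 CPM with KDM5A shRNA, but 24.7 and 26.1 CPM in the library with both shRNAs, and 3 cells held 86.9% of its UMIs in the detected cells with KDM5A shRNA. CXCL1 was the 1 called gene of 11 tested on the list of NF-kB and inflammatory genes, against 0.236% of all genes called higher. Without barcodes ending in N the edgeR log2 folds of IL8 and CXCL1 were 0.56 and 0.63 (adjusted p = 0.885 and 0.895). The list had 13 of 14 members above 0 with KDM5A shRNA (median 0.19) and 4 of 14 with KDM5A and KDM5B shRNA (median -0.17). Further genes that rose were CFLAR, which blocks death receptor signalling, with an edgeR log2 fold of 0.83, the linker histone H1F0 at 0.63, MSL3 of a histone acetylase complex at 0.98, UIMC1 of the BRCA1 complex at 1.66, and the mitochondrial transcripts MT-ND2 at 0.26 and MT-ND4L at 0.35. Among cells of 2000 to 6000 UMIs MT-ND2 and MT-ND4L stood at 0.056 and -0.028 (edgeR adjusted p = 0.998 for both). The medians of the 13 mitochondrial transcripts were 0.09 and 0.04. EXPH5, an effector of vesicle transport, had 55.9 CPM in detected and 31.4 CPM in undetected cells with KDM5A shRNA and 95.3 and 30.9 CPM with KDM5A and KDM5B shRNA, but did not pass in edgeR, with adjusted p = 0.0525.

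Genes that respond to viral nucleic acid or process small RNAs had no called member, with 7 sensors, 7 interferon response genes and 9 genes of the small RNA machinery tested in edgeR. With 0.236% of all genes called higher and 0.362% lower, a count of 0 among so few members is near the background and is not a result about them. Of the genes that sense viral RNA and DNA, 6 of 14 lay above 0 with KDM5A shRNA (median -0.07) and 3 of 9 with KDM5A and KDM5B shRNA (median -0.33). EIF2AK2, the kinase activated by double-stranded RNA, had 126 CPM in detected and 132 CPM in undetected cells with KDM5A shRNA, and 134 and 97.3 CPM with KDM5A and KDM5B shRNA (edgeR adjusted p = 0.971). Interferon response genes had 7 of 11 members above 0 (median 0.11) and 4 of 9 (median -0.47). IFITM3, an interferon-induced membrane protein, had 205 and 190.1 CPM with KDM5A shRNA and 159 and 221 CPM with KDM5A and KDM5B shRNA in detected and undetected cells (edgeR adjusted p = 0.975). The small RNA machinery had 6 of 12 above 0 (median 0.02) and 2 of 9 (median -0.16). DROSHA, the nuclease that starts microRNA processing, had 76.6 and 63.7 CPM with KDM5A shRNA and 67.0 and 73.6 CPM with KDM5A and KDM5B shRNA (edgeR adjusted p = 0.976). Cytoplasmic ribosomal proteins had medians of 0.00 and -0.01.

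**Figure D5:**
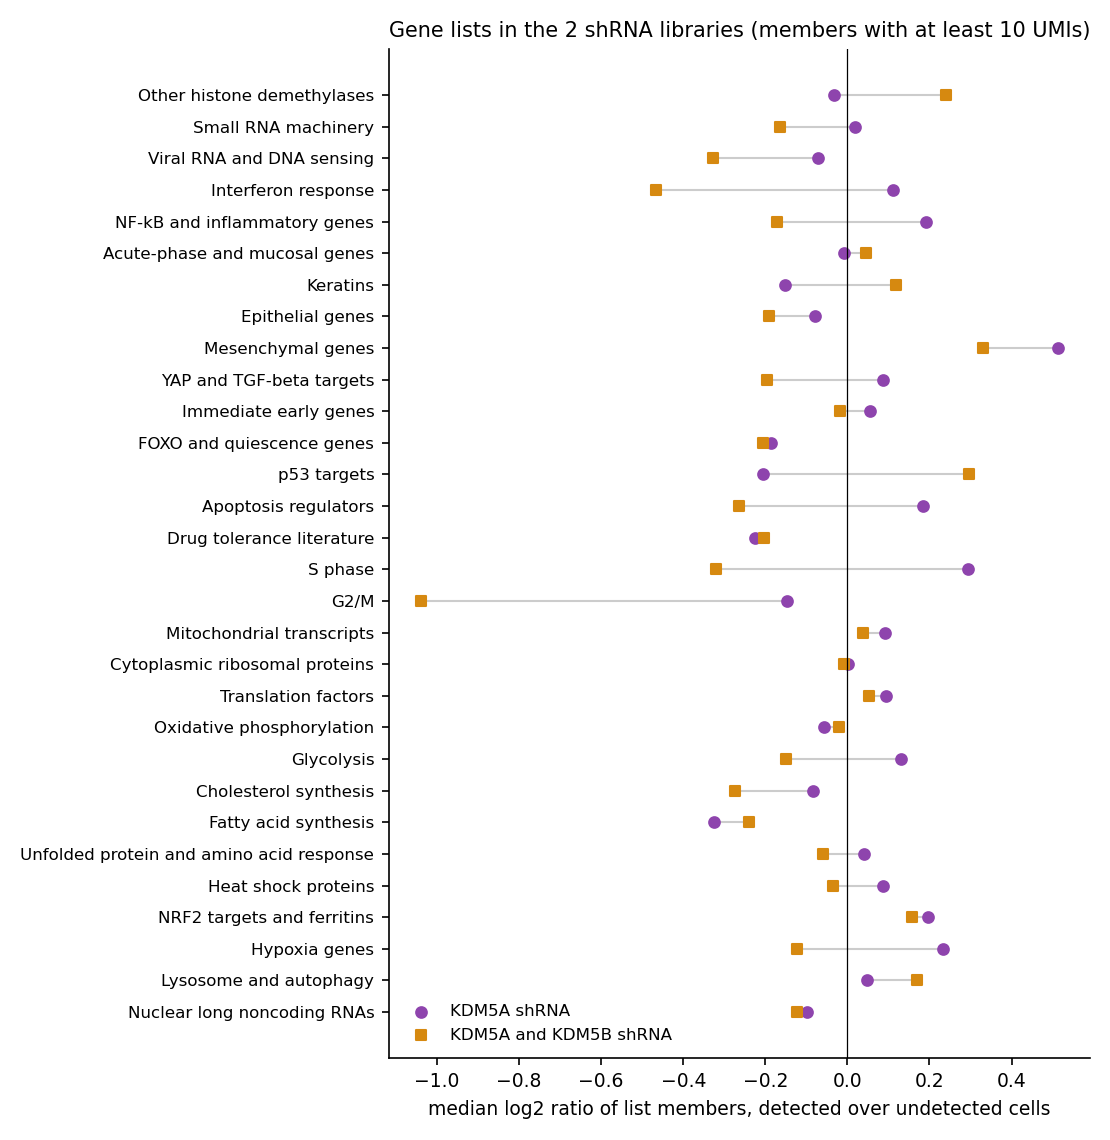
Median log2 ratio of detected over undetected cells (horizontal axis) for gene lists with at least 5 members of at least 10 UMIs in each library (rows); purple circles are the KDM5A shRNA library and orange squares the KDM5A and KDM5B shRNA library. Most medians lie near 0, G2/M reaches -1.04 in the library with both shRNAs, and NRF2 targets and ferritins are above 0 in both, at 0.20 and 0.16.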

How the data were processed

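The authors deposited 1 table of Drop-seq counts per library, with gene symbols in rows, cell barcodes in columns and unnormalized UMI numbers. Per the submitters' processing notes STAR and FastQC were used with GRCh37.p13, or hg19; versions, the counting tool, the choice of barcodes and how the vector sequence entered the reference are not given in the sources used here.

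Cells had at least 1000 UMIs and at most 20% mitochondrial UMIs, and the 6 libraries held 571873 to 3708703 UMIs in such cells. No doublet caller was used, because doublets within 1 cell line are hard to recognise. All UMIs were summed per library and class and divided by the class total to give CPM. Thinning drew 1000 UMIs per cell without replacement from a fixed seed. Levels carry exact Poisson intervals, shares exact binomial intervals and ratios exact conditional intervals, all at 95%. Cells of a library are not replicates, so ratios within a library were not tested.

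The class difference over both shRNA libraries was tested with edgeR 4.0.16 in R 4.3.3 on the 4 sums, with library as a term, TMM, filterByExpr, a robust quasi-likelihood fit and Benjamini-Hochberg adjustment, with the vector row left out. DESeq2 1.42.0 was an alternative and left 0 adjusted p-values as NA. In counts simulated for this comparison from the real means over 6537 genes, with 200 genes changed, edgeR recovered 80% of genes changed 2-fold and 100% of those changed 4-fold, with 3 false calls. The changed genes were all raised, had at least 200 expected UMIs over the 4 sums, and carried independent noise. The simulation therefore does not cover sparse genes such as KDM5A, falls, or genes that a few cells dominate. Python 3.11.15, numpy 2.4.6 and scipy 1.17.1 gave the other values.

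The text names KDM5A and KDM5B, genes called by edgeR, members of the lists with the most UMIs, and part of the 12 highest and 12 lowest genes by the smaller log2 ratio of the 2 libraries, among genes with at least 30 UMIs in each and the same sign with and without thinning. Medians of lists leave out members under 10 UMIs and add 0.5 to each count. Of the genes called higher, 1 is not reported here. RPPH1 was looked at in all libraries after its values were seen. The members, lists and tests were chosen with earlier results of these data known. Alternatives changed the limits on UMIs and mitochondrial share, the barcodes, the depth range, the vector rule, the size factors, the filter, the library term and the libraries used.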

Additional observations from a re-analysis of the deposited data

Results flagged for a closer look

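KDM5A differed in direction between the 2 shRNA libraries. Its log2 ratio of detected over undetected cells was -1.82 in the KDM5A shRNA library and 0.57 in the KDM5A and KDM5B shRNA library. Only the first interval leaves out 0, there is 1 library of each kind, and the difference was not tested.

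Barcodes below 1000 UMIs, which entered no comparison, also held vector UMIs. The vector row stood at 80.3 CPM (29.5 to 175) with KDM5A shRNA, 72.2 CPM (26.5 to 157) with KDM5A and KDM5B shRNA and 31.1 CPM (8.48 to 79.7) in the scrambled library, from 6, 6 and 4 UMIs. In the libraries without pLVTHM such barcodes held 0 vector UMIs.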

How the results depend on the processing

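KDM5A had a log2 ratio below 0 in the KDM5A shRNA library in all 11 alternatives, between -2.10 and -1.17. Its interval included 0 in cells of 2000 to 6000 UMIs (-3.12 to 0.27) and in the 2 thinning draws (-7.49 to 0.59, -4.86 to 0.26). It also did with the vector seen among thinned UMIs (-3.47 to 0.43). These rested on 4, 1, 2 and 3 KDM5A UMIs in detected cells, and several other alternatives held the same 10 UMIs as reported above. In the KDM5A and KDM5B shRNA library KDM5A moved to 1.81 (-0.55 to 4.49) after thinning, from 5 UMIs in detected and 3 in undetected cells. In the second draw it was 0.07 (-3.40 to 2.87). In the scrambled library KDM5A moved to -1.13 (-6.45 to 1.38) at 2 or more vector UMIs, from 1 UMI in detected cells. KDM5B in the KDM5A shRNA library moved to 0.71 and -0.39 in 2 draws of the thinning. The detected shares were 15.8% (KDM5A shRNA) and 1.94% (scrambled) in cells of 2000 to 6000 UMIs, 7.83%, 12.1% and 1.80% (KDM5A shRNA, both shRNAs, scrambled) at 2 or more vector UMIs, and 6.93%, 6.45% and 1.80% after thinning. Genes past 1.5-fold, higher and lower, are given of the genes with enough UMIs, whose number changed with the setting. After thinning they were 13 and 20 of 519 (KDM5A shRNA) and 4 and 3 of 155 (both shRNAs). In the second draw they were 4 and 17 of 504, and 1 and 2 of 153. With the vector seen among thinned UMIs they were 223 and 283 of 2841, and 139 and 139 of 1255. At 30 UMIs per gene they were 432 and 506 of 6474, and 269 and 411 of 4057. At 2-fold they were 4 and 9 of 2841, and 2 and 2 of 1255. In cells of 2000 to 6000 UMIs 8 and 11 of 298 passed with both shRNAs. With KDM5A shRNA 35 of 1936 were higher without barcodes ending in N, and 138 of 2436 were lower at 2 or more vector UMIs.

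The edgeR counts, 15 higher and 23 lower, were 5 and 7 at no more than 10% mitochondrial UMIs, 7 and 9 without barcodes ending in N, 9 and 14 at 2 or more vector UMIs, 0 and 1 in cells of 2000 to 6000 UMIs, 0 and 1 and, in the second draw, 0 and 2 after thinning, and 0 and 0 with the vector seen among thinned UMIs (140 and 147 at an unadjusted p under 0.05). They were 5 higher without the filter, 0 and 0 without the library term (58 and 89 unadjusted), 2 and 6 with the scrambled library added, 2 and 1 to 2 in fits of the scrambled and 1 shRNA library, and 0 and 1 in DESeq2. The causes were not tested. The fit on all UMIs tested 6348 genes, that of cells of 2000 to 6000 UMIs 2612, and the thinned draws 1527 and 1559. With cells called by pLVTHM or RPPH1, chosen after seeing the data, the edgeR counts were 6 and 13. KDM5A then stood at -1.63 and -0.03 in the shRNA libraries. Directions turned in fits of the scrambled and 1 shRNA library for FTH1 (-0.018 and -0.066), TPX2 (0.12), IL8 (-0.28) and LIMCH1 (0.20), with the vector seen among thinned UMIs for IL8 (-0.15), CXCL1 (-0.65), MT-ND4L (-0.17), MT-ND2 (-0.24) and TXNRD1 (-0.14) and in cells of 2000 to 6000 UMIs for MT-ND4L (-0.028). Ratios with 0 UMIs in a class gave no value, and thinning was not run with 500 UMIs per cell. The library term already pairs the classes of a library. KDM5A rested on 10 UMIs in detected cells of the KDM5A shRNA library.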
